A study of Mus musculus with 3 samples.

Results

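The miR-26 family of mouse liver was examined in small RNA libraries taken at 3 stages of ischemia-reperfusion injury. The family was taken as every listed mature microRNA whose name starts with miR-26a or miR-26b, on either arm of the hairpin, which gave 5 of the 1908 microRNAs listed. They are mmu-miR-26a-5p, mmu-miR-26b-5p, mmu-miR-26b-3p, mmu-miR-26a-1-3p and mmu-miR-26a-2-3p, and each had at least 1 read in every library. The inbred mouse strain C57BL/6J was used throughout, as males aged 8 to 10 weeks. The Sham group had a laparotomy with no clamping and was sampled after 90 min. In the WI group (warm ischemia) the vessels and bile duct of the left and median lobes were clamped for 90 min. In the IR group the same clamp of 90 min was followed by 120 min of reperfusion. Each group was 1 library, and whether it pooled several mice was not stated, so no difference has a replicate check and every test compares 2 libraries, not 2 conditions. The IR livers were also taken later after surgery than the others, and reperfusion and time since surgery cannot be told apart.

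MicroRNAs are cut from hairpin transcripts into a short duplex, 1 strand of which (the guide) is kept in the silencing complex and pairs with messenger RNAs through its seed, bases 2 to 8, while the other strand (the passenger) is mostly degraded. The miR-26 hairpins lie inside genes of the Ctdsp family, which encode small phosphatases that act on RNA polymerase II and on the retinoblastoma protein. In liver, miR-26a is abundant, is known to restrain cell cycle genes of the G1 to S transition, and is known to be low in liver cancer.

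The mature sequences are shown first because the family is defined by them and because the near-identity of its members bears on how reads are assigned. They were taken from RefSeq (GRCm38.p6) by microRNA name, all 5 members were matched, and capitals mark the seed.
miR-26a-5p: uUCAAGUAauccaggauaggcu
miR-26b-5p: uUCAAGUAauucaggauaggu
miR-26b-3p: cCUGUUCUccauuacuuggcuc
miR-26a-2-3p: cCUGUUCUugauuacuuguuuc
miR-26a-1-3p: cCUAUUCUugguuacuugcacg

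MiR-26a-5p and miR-26b-5p carry the same seed, UCAAGUA, and no other microRNA in the files had it among the 1603 with a sequence in the table. Positions are counted from 1 at the 5′ end. The first 10 bases are identical, and the substitutions from miR-26a-5p to miR-26b-5p are C11U and C21U, with miR-26b-5p 1 base shorter. The first 20 bases of both thus differ at 1 position. The authors allowed 1 mismatch when reads were aligned to the genome but kept only the alignments with the fewest mismatches. A read shortened at the 3′ end that still covers the differing position would thus fit its own name best, unless that base was misread. The settings of the later counting step were not stated, and the part of misassigned reads in the counts was not tested.

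The passenger strands fall into different seed groups. MiR-26b-3p and miR-26a-2-3p share the seed CUGUUCU and differ by U9C, G10C, U19G and U20C, read from miR-26a-2-3p to miR-26b-3p. MiR-26a-1-3p has the seed CUAUUCU, and A4G is the seed change that separates it from both others. MiR-6932-3p and miR-7039-3p also had the seed CUGUUCU, and both had 0 reads in every library.

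The hairpins were placed on the NCBIM37 (mm9) assembly, the build to which the authors aligned their reads, with GENCODE gene models. The genome sequence at each place was identical to the RefSeq hairpin. They are printed because 2 of them give the same 5p product and only the 3p arm tells them apart. Capitals mark the 5p and the 3p product.
Mir26a-1: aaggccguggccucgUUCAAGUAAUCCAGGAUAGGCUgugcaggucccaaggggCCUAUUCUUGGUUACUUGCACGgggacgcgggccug
Mir26a-2: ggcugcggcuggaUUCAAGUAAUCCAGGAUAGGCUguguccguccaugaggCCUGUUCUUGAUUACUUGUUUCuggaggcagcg
Mir26b: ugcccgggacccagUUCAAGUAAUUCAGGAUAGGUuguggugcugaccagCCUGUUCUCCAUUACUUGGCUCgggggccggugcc

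Mir26a-1 lies on chromosome 9 (chr9:118940914-118941003, plus strand) in intron 5 of Ctdspl, 105.3 kb after the start of that transcript. Mir26a-2 lies on chromosome 10 (chr10:126432586-126432669, plus strand) in intron 5 of Ctdsp2, 16.8 kb after the transcript start. Of the 2 annotated Ctdsp2 models, 1 has an exon that overlaps this hairpin by 1 base. Mir26b lies on chromosome 1 (chr1:74440884-74440968, plus strand) in intron 4 of Ctdsp1, 2.8 kb after the transcript start. All 3 hairpins are on the strand of their host gene, and no exon of Ctdspl or Ctdsp1 overlaps the hairpin inside it.

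**Figure D1:**
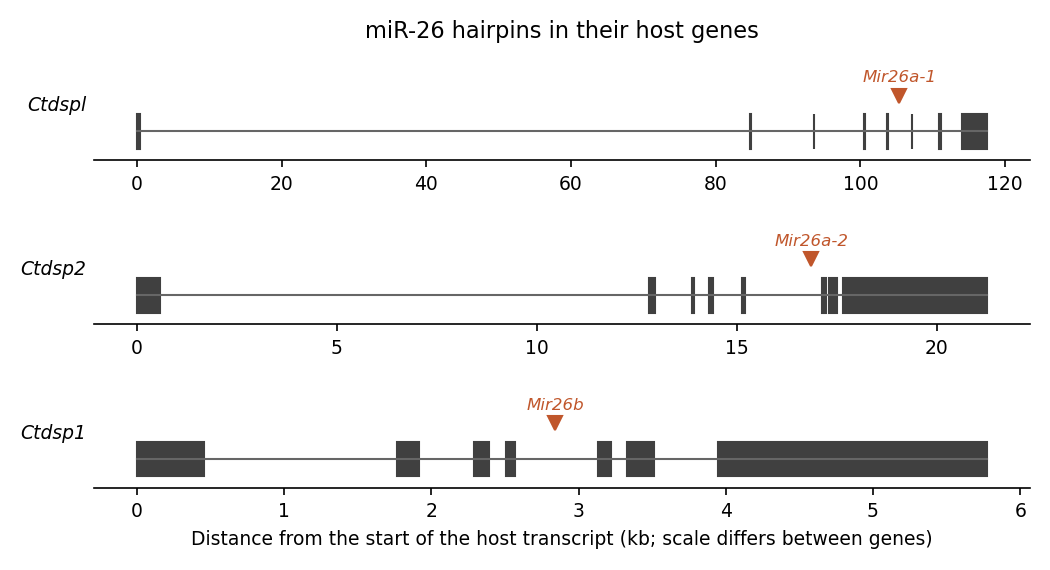
Exons (boxes) and the hairpin (triangle) along the longest protein-coding model of each host gene, as distance from the transcript start in kb, with a separate scale per gene. The hairpins lie 105.3 kb (Ctdspl), 16.8 kb (Ctdsp2) and 2.8 kb (Ctdsp1) from the start, each between exons.

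MicroRNA reads numbered 3844133 for Sham, 5064014 for WI and 3784539 for IR. Levels are given as reads per 1000000 (CPM) of library totals after TMM scaling (trimmed mean of M-values), which sets most microRNAs level between libraries. In the same order, 3 reads correspond to 0.758, 0.617 and 0.785 CPM, taken as the detection limit. Intervals are 95% and, like this limit, cover counting error only. The label of liver was checked against microRNA markers. The hepatocyte microRNA miR-122-5p had 63202, 92431 and 58752 reads in Sham, WI and IR, and miR-216a-5p of pancreas had 0 in all 3. Other microRNAs listed as absent from liver were not all at 0. In the same order, miR-375-3p had 45, 86 and 36 reads, miR-9-5p 3, 4 and 29, and miR-124-3p 0, 0 and 4.

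The family was led by miR-26a-5p in all 3 libraries. Its reads numbered 124750 (Sham), 161633 (WI) and 116406 (IR), and only 7 microRNAs had more reads in each library. The Sham level was 31502.2 CPM (interval 31327.6 to 31677.5), the WI level 33223.5 (33061.8 to 33385.9) and the IR level 30440.6 (30265.9 to 30615.9). The WI library was thus highest and the IR library lowest, and the counting intervals did not overlap. As a share of all microRNA reads, which amounts to scaling by library totals, the order differed, with Sham at 3.25%, WI at 3.19% and IR at 3.08%.

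MiR-26b-5p, the guide from the Ctdsp1 intron, had 25077, 36974 and 22104 reads in Sham, WI and IR. Among all microRNAs it ranked 21 (Sham), 20 (WI) and 25 (IR) by reads. The Sham level was 6332.5 CPM (6254.4 to 6411.4), the WI level 7600.0 (7522.7 to 7677.8) and the IR level 5780.3 (5704.3 to 5857.0). WI was again highest and IR lowest, and for this member the share of all reads gave the same order (0.652%, 0.730% and 0.584%). Both guides together took 37834.7 (Sham), 40823.5 (WI) and 36220.8 CPM (IR).

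MiR-26b-3p, the passenger strand of the same hairpin, gave 77 (Sham), 125 (WI) and 61 (IR) reads. These were 19.4 CPM (15.3 to 24.3), 25.7 (21.4 to 30.6) and 16.0 (12.2 to 20.5). The order was that of its guide, with the WI and IR intervals apart and the Sham interval overlapping both.

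The passenger strands of miR-26a had few reads. MiR-26a-2-3p gave 21 (Sham), 22 (WI) and 9 (IR) reads, which is 5.30 CPM (3.28 to 8.11), 4.52 (2.83 to 6.85) and 2.35 (1.08 to 4.47). The 3 intervals overlapped. MiR-26a-1-3p had 1, 4 and 2 reads, which is under the limit of 3 reads in Sham and IR and just over it in WI, and its 3 levels could not be told apart at this depth. Within each library the order was miR-26a-5p, miR-26b-5p, miR-26b-3p, miR-26a-2-3p and miR-26a-1-3p, and the only neighbours with overlapping intervals were the last pair in IR.

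**Figure D2:**
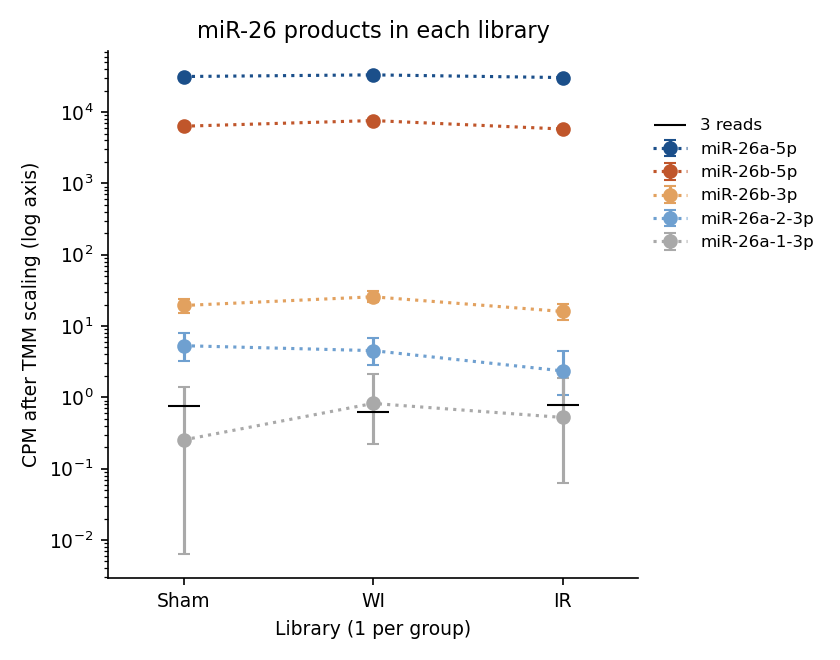
Level of each miR-26 product in CPM after TMM scaling (log axis) in the Sham, WI and IR libraries, 1 per group. Points are single libraries, bars are 95% counting intervals, dotted lines join the same product and black dashes mark the level of 3 reads. The 5p products lie above 5780 CPM in every library and the 3p products at or below 25.7 CPM.

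A microRNA was called when its fold change exceeded 1.5 with a Fisher's exact p below 0.01, computed on the reads and the TMM-scaled totals. The pseudocount of the log2 fold changes was 0.1 CPM, on log2(CPM + 0.1), and standard errors (SE) come from the read counts alone. After ischemia alone, no member was called, against 1.92% of the 782 microRNAs tested in WI against Sham. MiR-26b-5p was higher in WI by a log2 fold change of 0.26 (SE 0.012), the exact interval of the ratio being 1.18 to 1.22. This exceeded counting error (Fisher's exact p = 4.91e-112, adjusted over all 782 to 2.95e-110) and stayed below the fold threshold. Among the 136 microRNAs with at least 1000 reads, 18.4% had a shift at least as large in size. MiR-26a-5p had a log2 fold change of 0.08 (SE 0.0054), but its direction depended on the scaling, being -0.02 with library totals, and 65.4% of the 136 had a shift at least as large. MiR-26b-3p had a log2 fold change of 0.40 (SE 0.21, Fisher's exact p = 0.0562, adjusted 0.303). MiR-26a-2-3p had -0.23 (SE 0.43, Fisher's exact p = 0.647, adjusted 0.996). For miR-26a-1-3p, with 1 and 4 reads, the ratio of WI to Sham was 3.26 with an exact interval from 0.322 to 160.3, which leaves both directions possible.

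Reperfusion was then compared with ischemia. Of the 5 members, 1 was called, against 9.25% of the 789 microRNAs tested in either direction and 3.04% lower in IR. This was miR-26b-3p, which fell by 0.68 on the log2 scale (SE 0.22), to 0.621 times its WI level (exact interval 0.449 to 0.850; Fisher's exact p = 0.00237, adjusted 0.0143). The call rested on 125 and 61 reads and was lost after thinning to the smallest library (Fisher's exact p = 0.0206) and when a coefficient of variation between animals of 0.1 was assumed (p = 0.0257 by edgeR's exact test). Its guide, miR-26b-5p, was lower in IR by a log2 fold change of -0.39 (SE 0.012, Fisher's exact p = 1.86e-233, adjusted 8.64e-232), a ratio of 0.761 that did not pass the fold threshold. Among the 136 abundant microRNAs, 19.1% shifted at least as far. MiR-26a-5p had a log2 fold change of -0.13 (SE 0.0055), a ratio of 0.916 (exact interval 0.909 to 0.923). Under TMM, 62.5% of the 136 shifted at least as far, and with library totals its log2 fold change was -0.05. MiR-26a-2-3p had -0.91 (SE 0.55, Fisher's exact p = 0.105, adjusted 0.371), with an exact interval of the ratio from 0.211 to 1.18. For miR-26a-1-3p the ratio of IR to WI was 0.636 (exact interval 0.0575 to 4.44).

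Between IR and Sham no member was called, against 7.11% of the 774 microRNAs tested. MiR-26b-5p had a log2 fold change of -0.13 (SE 0.013, Fisher's exact p = 3.18e-23, adjusted 6.66e-22) and miR-26a-5p one of -0.05 (SE 0.0059, Fisher's exact p = 1.26e-17, adjusted 2.27e-16). Shifts of at least these sizes were found in 55.9% and 78.7% of the 136 abundant microRNAs. MiR-26b-3p had -0.28 (SE 0.25, Fisher's exact p = 0.269, adjusted 0.717). MiR-26a-2-3p had the largest difference of the family, -1.14 (SE 0.56), a ratio of 0.444 that passed the fold threshold but not the p threshold (exact interval 0.179 to 1.01, Fisher's exact p = 0.0437, adjusted 0.216). No ratio is given for miR-26a-1-3p, which had 1 and 2 reads.

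**Figure D3:**
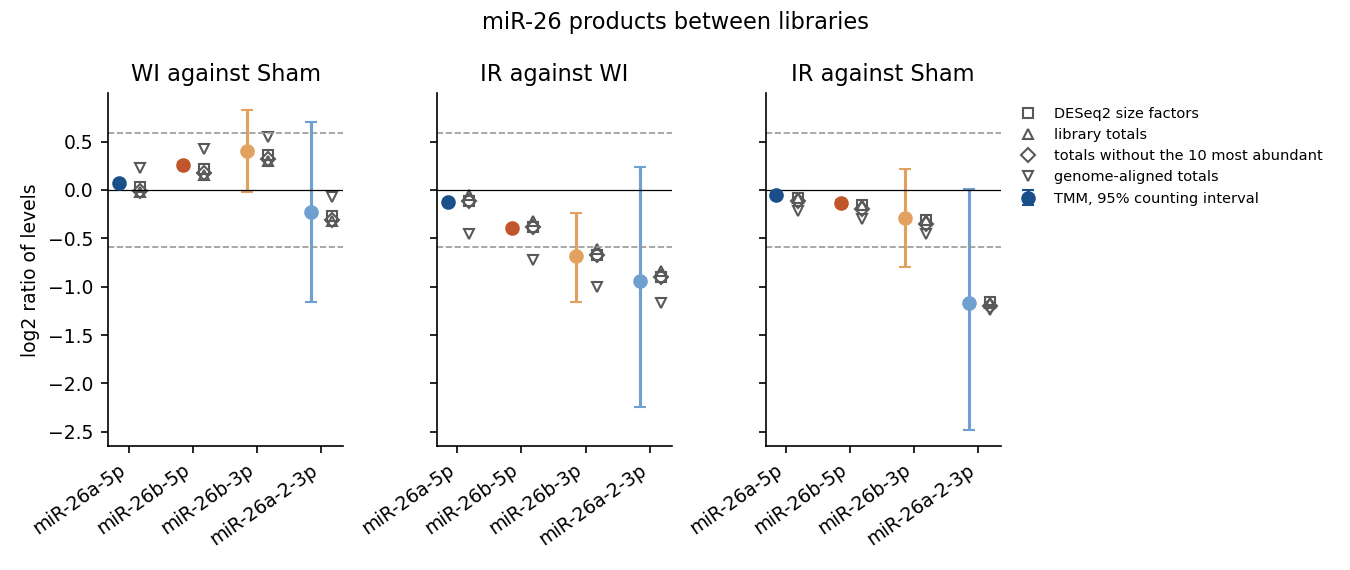
Log2 ratio of the TMM-scaled levels of 4 miR-26 products in the 3 comparisons (filled, no pseudocount, bars are 95% exact counting intervals), beside the log2 fold changes on log2(CPM + 0.1) under 4 other scalings (open). Dashed lines mark a fold change of 1.5. MiR-26a-5p changes sign with the scaling in WI against Sham, miR-26b-5p passes the line in IR against WI only with genome-aligned totals, and bars too short to see belong to the 5p products.

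Such small shifts depend on the scaling. Totals of genome-aligned reads moved the median log2 fold change of all microRNAs tested to 0.20 for WI against Sham and to -0.32 for IR against WI, where TMM gave 0.05 and -0.01. With them miR-26b-5p had 0.42 and -0.72, and miR-26a-5p had 0.23 and -0.45. The miR-26b-5p log2 fold change lay over the 5 scalings between 0.16 and 0.42 (WI against Sham) and between -0.72 and -0.32 (IR against WI), always with the same sign.

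The balance between the guides was compared within each library, where no scaling enters. There were 4.97 reads of miR-26a-5p for each of miR-26b-5p for Sham (exact interval 4.91 to 5.04), 4.37 for WI (4.32 to 4.42) and 5.27 for IR (5.19 to 5.34). MiR-26b-5p thus held 16.7% (Sham), 18.6% (WI) and 16.0% (IR) of the reads with this seed. The intervals of the 3 libraries did not overlap. From Sham to WI the log2 ratio of miR-26b-5p to miR-26a-5p changed by 0.19 (SE 0.013), from WI to IR by -0.27 (SE 0.013) and from Sham to IR by -0.08 (SE 0.015). As background, 77 other pairs of abundant microRNAs with a common seed, many of which share members, had a median size of change of 0.12, 0.20 and 0.17. The pairs came from the 115 of 136 abundant microRNAs that had a sequence. Of these pairs, 23, 25 and 56 changed more than the miR-26 pair. The miR-26 shift was thus above the median size from Sham to WI and from WI to IR, and below it from Sham to IR.

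The arms of each hairpin were compared next. The 5p arm was the guide by far, with 99.93% (Sham), 99.92% (WI) and 99.95% (IR) of the family's reads. For miR-26b, 3p reads were 0.306% of both arms for Sham (exact interval 0.242 to 0.382), 0.337% for WI (0.281 to 0.401) and 0.275% for IR (0.211 to 0.353). For miR-26a, with the 3p products of both hairpins summed, they were 0.0176% (0.0111 to 0.0267), 0.0161% (0.0105 to 0.0236) and 0.00945% (0.00472 to 0.0169). The passenger share of miR-26a was below that of miR-26b in every library with intervals far apart. Over hairpins with at least 1000 reads, the median share of the minor arm was 0.558%, 0.702% and 0.544%. In Sham, 8 of 79 such hairpins had a lower minor share than miR-26a.

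Neither hairpin passed an adjusted p of 0.05 for a change of its 3p to 5p ratio. The tests ran over all hairpin names with both arms and at least 10 reads on the minor arm. Of these, 8.46% of 130 passed in WI against Sham, 14.1% of 128 in IR against WI and 8.59% of 128 in IR against Sham. For miR-26b the log2 change was 0.14 (SE 0.21, Fisher's exact p = 0.519, adjusted 0.937) in WI against Sham, -0.29 (SE 0.22, Fisher's exact p = 0.198, adjusted 0.473) in IR against WI and -0.15 (SE 0.25, Fisher's exact p = 0.551, adjusted 0.801) in IR against Sham. The fall of miR-26b-3p from WI to IR was thus not distinguishable in size from the lower level of its guide at this depth. For miR-26a the log2 change was -0.87 (SE 0.52, Fisher's exact p = 0.116, adjusted 0.411) in IR against Sham, on 22 and 11 passenger reads.

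Only the 3p reads separate the hairpins in Ctdspl and Ctdsp2. MiR-26a-2-3p gave 21 of 22 such reads (Sham), 22 of 26 (WI) and 9 of 11 (IR). The share from miR-26a-1-3p was 4.55% (exact interval 0.115 to 22.8), 15.4% (4.36 to 34.9) and 18.2% (2.28 to 51.8). Reads from the Ctdsp2 hairpin were the majority of 3p reads in each library, with an interval that includes an even split in IR alone. Each strand of a duplex can decay at its own rate, so these shares do not measure how much miR-26a-5p each hairpin gave.

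**Figure D4:**
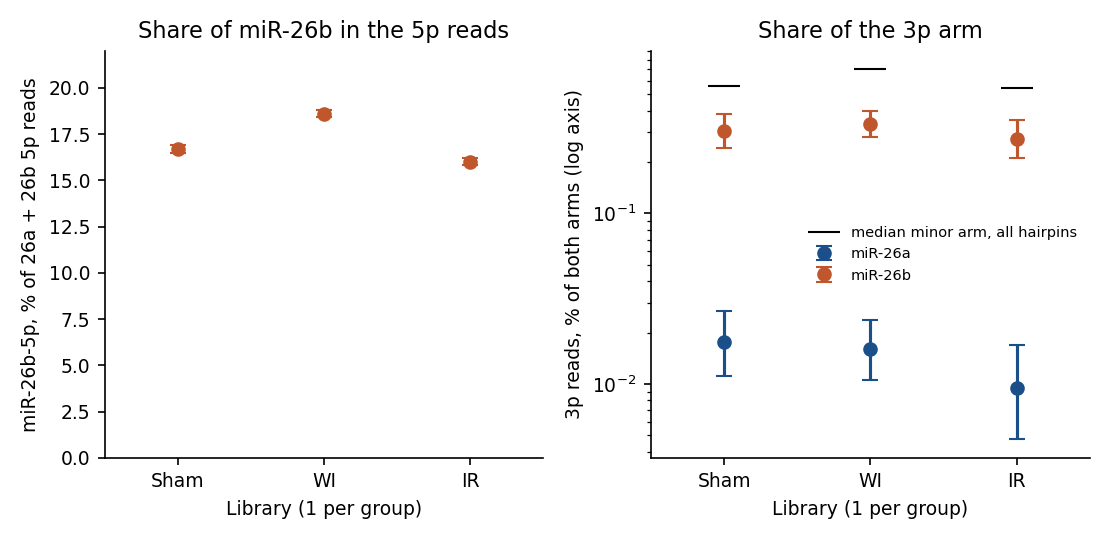
Left, miR-26b-5p as a percentage of the 26a-5p and 26b-5p reads of each library (axis from 0); right, 3p reads as a percentage of both arms for miR-26a and miR-26b (log axis), with the median minor-arm share of all hairpins with at least 1000 reads (black dashes). Bars are 95% exact intervals. The miR-26b share is highest in WI (18.6%), and the 3p share of miR-26a lies below that of miR-26b in every library.

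The microRNAs with the most similar profile were sought by the distance between their log2 fold changes of WI against Sham and of IR against Sham. These comparisons share the Sham library, and the search covered 134 microRNAs with at least 1000 reads over 3 libraries. The nearest to miR-26a-5p were miR-192-5p (distance 0.014), let-7e-5p (0.021) and miR-30a-3p (0.025), with a median distance of 0.22 over all. MiR-192-5p, with 962981 (Sham), 1255380 (WI) and 905419 (IR) reads, had log2 fold changes of 0.09 in WI and -0.04 in IR. The nearest to miR-26b-5p were miR-126a-5p (0.035), let-7d-5p (0.057) and miR-29c-3p (0.06), with a median of 0.33. MiR-126a-5p, from the endothelial gene Egfl7, had 0.28 in WI and -0.16 in IR, and 64593, 96481 and 55765 reads in Sham, WI and IR. Let-7d-5p had 0.24 and -0.08, and miR-29c-3p had 0.27 and -0.07.

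**Figure D5:**
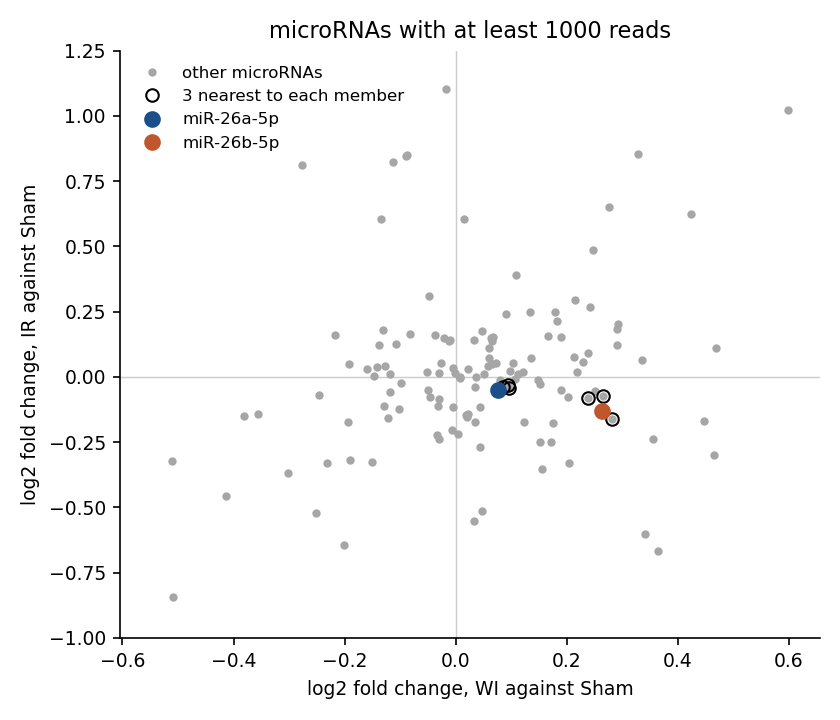
Log2 fold change in WI against Sham (horizontal) and IR against Sham (vertical) of microRNAs with at least 1000 reads over the 3 libraries, each point 1 microRNA, with 3 of the others beyond the vertical axis. MiR-26a-5p lies at 0.08 (a sign that flips with library totals) and -0.05 and miR-26b-5p at 0.26 and -0.13, and open circles mark the 3 nearest to each.

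Other microRNAs known to restrain the G1 to S transition were set beside the family. All 21 of this list were tested. None was called in WI against Sham, 2 were called lower in IR against WI and 1 higher in IR against Sham. Over all microRNAs tested, 1.92%, 9.25% (3.04% lower) and 7.11% were called. The median log2 fold change of the list was 0.20, -0.14 and -0.04 in that order, where all microRNAs tested had 0.05, -0.01 and 0.04. The members called lower from WI to IR were miR-29b-3p (526 to 243 reads, log2 fold change -0.77, SE 0.11) and miR-34a-5p (214 to 112 reads, -0.59, SE 0.17), which p53 induces. MiR-34c-5p was called higher in IR against Sham (20 to 43 reads, 1.14, SE 0.38). The most abundant was let-7f-5p, at 23485.1 (Sham), 27048.2 (WI) and 18687.0 CPM (IR), which like miR-26b-5p was highest in WI and lowest in IR. Let-7a-5p also had its highest level in WI, with 8575.7, 9977.2 and 8678.8 CPM. MiR-16-5p had its lowest there, with 10598.4, 9708.3 and 10897.6 CPM. Let-7c-5p had 6123.2, 6385.0 and 6442.9 CPM.

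For 22 other microRNAs known to lie in introns of protein-coding genes, 1 strand of each was examined in the same way. For miR-126a the listed 3p strand had fewer reads here than the 5p strand. In WI against Sham 2 were called higher and 1 lower, in IR against WI 1 higher and 2 lower, and in IR against Sham none, where 1.92%, 9.25% and 7.11% of all microRNAs tested were called. Their median log2 fold changes were 0.01, 0.01 and 0.05. The called ones were miR-33-5p (21, 61 and 18 reads in Sham, WI and IR), from the sterol regulator gene Srebf2, miR-455-3p (86, 347 and 110 reads), from the collagen gene Col27a1, and miR-149-5p (117, 59 and 113 reads), from Gpc1. Like miR-26b-5p, miR-33-5p and miR-455-3p were highest in WI, while miR-149-5p was lowest there. Of the most abundant, miR-101b-3p had 6092.1, 7685.1 and 6373.9 CPM and miR-30e-5p had 7492.4, 9177.0 and 8618.9, both highest in WI. MiR-378a-3p had 11302.7, 11678.5 and 12760.6 CPM, and miR-126a-3p had 2955.5, 2951.1 and 2985.3 CPM.

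Markers of other cell types also differed between libraries. The 3 red blood cell microRNAs (miR-451a, miR-144-3p and miR-486-5p) summed to 4926.0 (Sham), 4651.4 (WI) and 8824.2 CPM (IR), with 2 of 3 called higher in IR against WI and 3 of 3 in IR against Sham, where 9.25% and 7.11% of all microRNAs were called in either direction. The 4 of white blood cells summed to 359.1, 381.7 and 464.4 CPM, with miR-223-3p (109.8, 108.5 and 235.9 CPM) called higher in IR in both comparisons. The other members were not called, and their levels were lower in IR than in WI, with 118.7 against 152.1 CPM for miR-142-3p, 95.4 against 104.4 for miR-150-5p and 14.4 against 16.6 for miR-155-5p. The 3 of muscle summed to 6.82, 23.8 and 75.1 CPM, nearly all miR-133a-3p, and miR-1a-3p and miR-206-3p were at 0 in Sham. Of 4 microRNAs of brain and pancreas, miR-9-5p (3, 4 and 29 reads) was called higher in IR in both comparisons and miR-375-3p (45, 86 and 36 reads) lower in IR against WI, while miR-124-3p had 0, 0 and 4 reads. The 4 of liver parenchyma summed to 267361.0, 285071.5 and 259962.6 CPM, and none of them was called. Most of this sum was miR-192-5p, and after TMM scaling the order of the sum was that of both miR-26 guides. MiR-192-5p had been chosen earlier for having the profile closest to miR-26a-5p, so this match adds no separate observation. By share of all reads, miR-26a-5p was instead highest in Sham. MiR-194-5p was highest in Sham under TMM as well (7131.5, 6908.3 and 6761.4 CPM). The 3 of stroma summed to 38770.1, 42178.5 and 34387.2 CPM, nearly all miR-143-3p, whereas miR-145a-5p had 133.1, 130.3 and 125.5 CPM and miR-214-3p had 40.2, 34.7 and 46.5. For endothelium, miR-126a-3p could not be told apart between libraries (Fisher's exact p = 0.906, 0.359 and 0.449). The 5p product of the same hairpin, which was not on the marker list and had more reads, had 16311.2, 19831.6 and 14582.7 CPM. It had been picked above as the profile nearest to miR-26b-5p, so its like order is no separate observation. The part of these cell types in the miR-26 levels was not tested, and in whole liver fewer cells of a type cannot be told apart from less RNA per cell.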

How the data were processed

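Small RNA was sequenced from 3 mouse liver libraries, 1 each for Sham, WI and IR, grouped by sample title. Each library's deposited table gave unnormalised counts of reads by microRNA name. The authors removed adaptors, selected reads by length, aligned them with Bowtie 0.12.7 to mm9 (the submitters' notes also list mm10, with no role stated), sorted them by RNA class with HTSeq and counted them with miRDeep2. No molecular identifiers were stated, so PCR copies count as reads.

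Here counts were scaled by TMM (edgeR 4.0.16, R 4.3.3) and tested over all microRNAs with at least 1 read in either library by two-sided Fisher's exact test (scipy 1.17.1) with Benjamini-Hochberg adjustment. Calls followed the thresholds of the study (fold change over 1.5, unadjusted p below 0.01). Without replicates, no quasi-likelihood model could be fitted. Arm ratios were tested alike over all hairpin names with both arms, after copies were summed. Alternatives covered scaling (including DESeq2 1.42.0 and the totals of genome-aligned reads that the study states), pseudocount, read minimum, depth, thresholds and assumed variation between animals. Named microRNAs were the family, the 3 nearest profiles to each guide, and from each list the 4 with most reads and any called. The members and lists were chosen with earlier results of these data known. Host genes of the intronic list came from general knowledge.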

Additional observations from a re-analysis of the deposited data

How the results depend on the processing

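Of 222 log2 fold changes of single members taken under other settings, 213 were the same in sign and call. Of the rest, 5 were no longer called, 2 were newly called and 2 had the opposite sign. Those 2 were miR-26a-5p in WI against Sham, at -0.024 when plain library totals were used and at -0.006 when the 10 most abundant microRNAs were left out of the totals. Other thresholds or assumed variation left the fold change as it was and could alter only the call. The read minimum could alter neither, so the 213 include values whose sign could not have changed. The 1 member called in IR against WI became 2 with genome-aligned totals, where miR-26b-5p joined miR-26b-3p, and 0 after thinning to the smallest library, with an assumed coefficient of variation of 0.1, 0.2 or 0.4, or at a fold change above 2. At p under 0.05, 1 member (miR-26a-2-3p) was called in IR against Sham. The log2 fold change of the summed level of both guides was 0.11 from Sham to WI, -0.173 from WI to IR and -0.063 from Sham to IR. In that order, size factors of DESeq2 gave 0.065, -0.154 and -0.089. Library totals gave 0.009, -0.1 and -0.091, leaving out the 10 most abundant gave 0.027, -0.154 and -0.127, and genome-aligned totals gave 0.266, -0.497 and -0.231. When miR-26a-1-3p alone was set against miR-26a-5p, the log2 change of the ratio became 1.211 (WI against Sham) and 0.837 (IR against Sham), on 1, 4 and 2 reads. With at least 50 reads on the minor arm, miR-26a could not be tested. The ratio of the guides within a library stayed inside its counting interval after thinning. Thinning left IR, the smallest library, unchanged and moves such a ratio only by counting error, so this is no separate check. No paired analysis was possible because each group had 1 library, and for the same reason none could be left out.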

Other observations

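The 3′ UTRs of the host genes were searched for the match to the miR-26 5p seed, the letters UACUUGA on the sense strand, in the longest annotated 3′ UTR of each gene (GENCODE, mm9). This search was chosen after the values had been seen. Ctdsp2, host of Mir26a-2, held 1 match, and Ctdspl and Ctdsp1 held 0. The match is printed within its window of chr10:126434608-126434629 (plus strand) and is shown because a host transcript with a match can pair with its own microRNA, with the matching letters in capitals.
Ctdsp2: ccaaguguugcucuUACUUGAu

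The motif was found in 8.61% of 19861 genes with an annotated 3′ UTR, and in 22.1% of the 1637 genes whose 3′ UTR length was within 20% of that of Ctdsp2. A match is a description of the sequence and not a site in use, and no messenger RNA levels were analysed here.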
